A study of Mus musculus with 12 samples.

Results

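The genes described here encode the matrix metalloproteinases (MMPs), the ADAMTS proteases and ADAMTS-like proteins, and the tissue inhibitors of metalloproteinases (TIMPs), as measured by RNA sequencing in mouse aortic valves at postnatal day 10. They were chosen by gene symbol alone (Mmp, Timp, Adamts or Adamtsl followed by a digit) among the 13959 genes of the authors' deposited comparison table, which gave 38 members: 12 MMPs, 16 ADAMTS proteases, 5 ADAMTS-like genes, 4 TIMPs and Mmp24os1. The last is a transcript from the strand opposite Mmp24 and no protease, and it is kept because the rule takes it. The study has 12 libraries in 3 groups of 4: wildtype mice, mice labelled Notch1+/-;Gata5+/- (called double-heterozygous here) and mice labelled Notch1+/-;Gata5-/- (called Gata5-null here). By the labels both mutant groups are heterozygous for Notch1, and they differ from each other in Gata5 only. Each library is RNA from 3 valves pooled, so the pool is the replicate and differences between animals within a pool are not seen. For strain, sex and the nature of the alleles the labels say nothing.

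MMPs and ADAMTS proteases are zinc-dependent enzymes that are made as inactive precursors and, once activated, cut components of the extracellular matrix or other secreted proteins. TIMPs bind the active site of these enzymes, and ADAMTS-like proteins resemble ADAMTS proteases without the protease domain and are known for binding fibrillin. In the growing valve the matrix is sorted into layers rich in collagen, proteoglycan and elastic fibres, and cleavage of the proteoglycan versican by ADAMTS proteases is a known part of that remodelling. Notch1 is a receptor that signals through the DNA-binding protein RBPJ, and Gata5 is a transcription factor of the endocardium.

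Libraries held 13866604 to 25059653 counts. Gata5 had no count in the 4 Gata5-null libraries, 18 to 56 counts in wildtype and 15 to 112 in the double-heterozygous libraries. Double-heterozygous replicates 1 to 3 had 97, 112 and 98 counts of Gata5, above every wildtype library. The counts therefore do not show a lower Gata5 level with the Gata5+/- label. Notch1, for which both mutant groups are heterozygous, did not have lower counts in the mutant groups: its level was 98.6 to 159 CPM (counts relative to the library's total, adjusted by the TMM method) in wildtype, 148 to 194 in the double-heterozygous and 153 to 213 in the Gata5-null libraries. The counts do not check the Notch1+/- label, since where in the gene the disruption lies was not stated. Valve interstitial cell markers, which include Col1a1, Postn and Dcn, were all present, with a summed level of 20200 to 26720 CPM over the 12 libraries. Cardiomyocyte markers were present as well, at 23810 to 55850 CPM, so the dissected tissue held heart muscle RNA. Wildtype replicate 2 had the lowest sum, and the other wildtype libraries had 45050 to 51510 CPM. Wildtype replicate 2 and Gata5-null replicate 3 had the most genes at 0, 3208 and 6000 of 20620 against 1017 to 2908 in the rest. Gata5-null replicate 3 lay far from all others. Wildtype replicate 2 lay above the other wildtype libraries (1504 to 2056) but near the highest of the rest. Both are called the libraries that stand apart below.

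No member passed the test in any comparison of genotypes. The test was edgeR's quasi-likelihood test with Benjamini-Hochberg adjustment over all 19346 genes tested, and calls were made where the adjusted p was under 0.05. For Gata5-null against wildtype 0 of the 38 members were called, where 0.0258% of all genes tested were (5 genes). For double-heterozygous against wildtype and for Gata5-null against double-heterozygous 0 members were called and so were 0.0% of all genes. DESeq2 and limma-voom also called 0 members in each comparison. In the authors' deposited table, which reproduces a DESeq2 refit of Gata5-null against wildtype to within 6.121e-06 in the log2 fold change of each member, 0 of 38 members were marked as changed. All 38 members passed the filter on low counts, so none was left untested.

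Levels are compared between genes only per kilobase of exon (all annotated exons of a gene merged), since a long transcript gives more reads. On that scale the wildtype valve was led by an inhibitor: Timp2, which besides inhibiting MMPs takes part with Mmp14 in activating the precursor of Mmp2, stood at 114 CPM per kb ± 11.6 (SD, n = 4). Mmp2, the gelatinase that degrades denatured collagen and basement membrane collagen, followed at 91 CPM per kb ± 7.47. Timp3, the inhibitor that stays bound to the matrix and also acts on ADAMTS proteases, stood at 72.7 CPM per kb ± 5.64, and Adamts2, which removes the N-terminal propeptide of fibrillar procollagens, at 66.2 CPM per kb ± 4.85. The 4 libraries of Timp2 lay above those of Mmp2, and those of Mmp2 above those of Timp3, while Timp3 and Adamts2 overlapped. This order and the sums per kb below depend on the lengths used. Before division by length the wildtype means were 618 CPM for Adamts2, 592 CPM for Timp3, 444 CPM for Timp2 and 307 CPM for Mmp2.

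A gap followed Adamts2: its lowest wildtype library, 59.3 CPM per kb, lay above the highest of Adamts10, 47.1. Adamts10, a protease that associates with fibrillin microfibrils, had 36.6 CPM per kb ± 7.997 and Adamts1, a versican-cleaving protease, 36.2 CPM per kb ± 9.69. Mmp14, a membrane-anchored MMP that cuts fibrillar collagen, had 29.2 CPM per kb ± 4.70 and overlapped both. From there down to Adamtsl1 at 1.56 CPM per kb ± 0.237, every neighbour in the wildtype order overlapped the next. The bottom of the order was Mmp24, Mmp3, Timp4, Adamts20 and Mmp12, each under 1 CPM per kb on average. Mmp3, the stromelysin, and Mmp12, the macrophage elastase, were at 0 counts in 3 libraries each, where a count of 0 allows up to 3 counts, or 0.124 to 0.206 CPM depending on the library. Mmp24 was at 0 in 1.

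**Figure D1:**
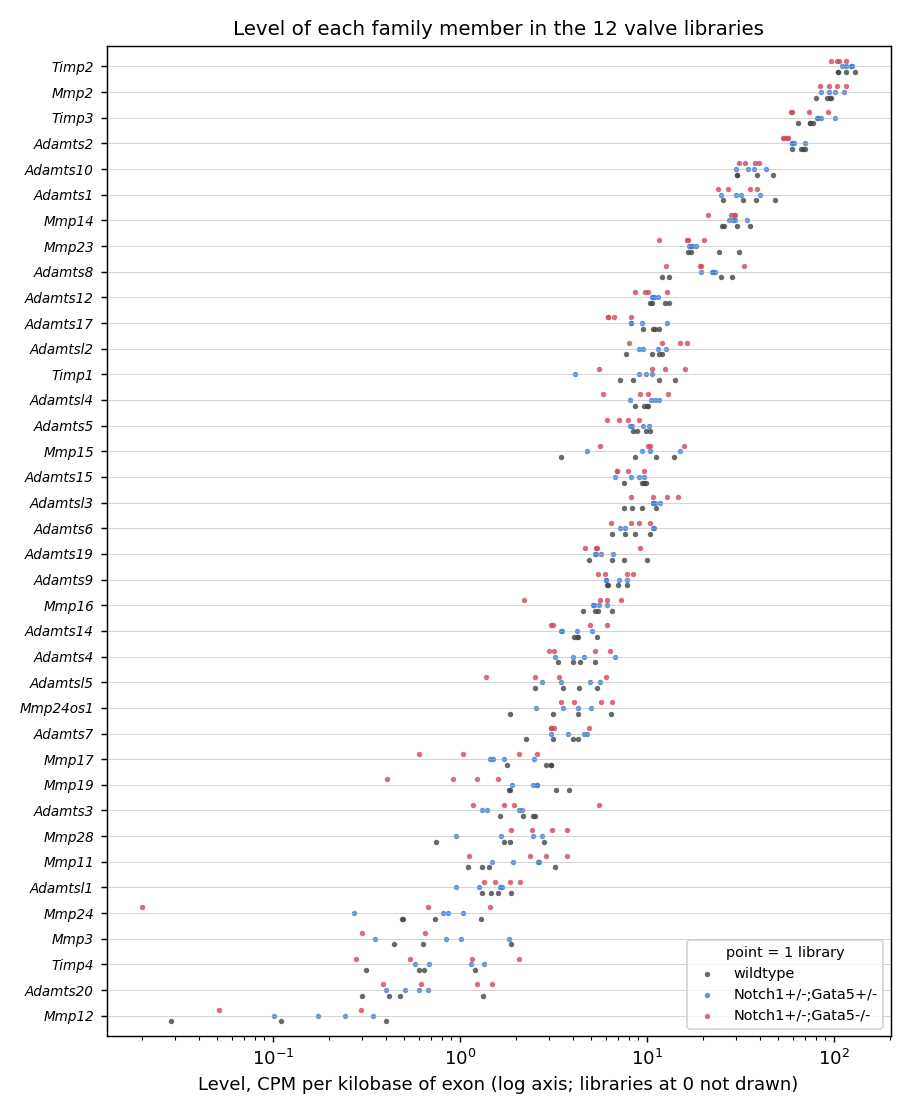
Level of each of the 38 members in CPM per kilobase of exon (log axis), ordered by the wildtype mean, with 1 point per library and 1 colour per genotype. Timp2, Mmp2, Timp3 and Adamts2 sit above 50 CPM per kb in every library, and the 3 genotypes overlap for nearly every member.

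Within each family a few genes carried most of the level. Mmp2 and Mmp14 together made up 71.4% to 78.4% of the summed level per kb of the 12 MMPs over the 12 libraries. Timp2 and Timp3 made up 91.3% to 97.4% of that of the 4 TIMPs. Timp1, an inducible TIMP, was a minor part of the family at 10.3 CPM per kb ± 3.15 in wildtype, and Timp4 had 0.69 CPM per kb ± 0.37. Among the 16 ADAMTS proteases, Adamts2, Adamts10 and Adamts1 made up 53.3% to 60.5%. Mmp25, Mmp21 and the collagenase Mmp13 were named only by the GENCODE annotation and are therefore outside the rule. They had 124, 94 and 87 counts over all 12 libraries and were at 0 in 4, 6 and 7 of them.

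The core of the MMP and TIMP system was similar in the 3 genotypes. Mmp2 had 271, 320, 310 and 327 CPM in wildtype, 380, 287, 341 and 316 CPM in the double-heterozygous libraries and 390, 284, 351 and 318 CPM in the Gata5-null libraries (replicates 1 to 4 in each list here and below). The 3 groups overlapped, and the log2 fold change of Gata5-null against wildtype was 0.13 with a 95% interval of -0.13 to 0.39 (0.0686 without Gata5-null replicate 1 and 0.20 without Gata5-null replicate 2), and that against double-heterozygous was 0.02 (-0.24 to 0.28). Timp2 had 409, 452, 410 and 504 CPM in wildtype, 485, 428, 449 and 481 CPM in the double-heterozygous libraries and 413, 406, 374 and 450 CPM in the Gata5-null libraries. These overlapped too, with a log2 fold change of -0.11 (95% interval -0.34 to 0.12) for Gata5-null against wildtype, which was -0.0445 without wildtype replicate 4, and -0.17 (-0.40 to 0.07) against double-heterozygous.

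Mmp14 had 153, 211, 151 and 180 CPM in wildtype, 172, 163, 177 and 204 CPM in the double-heterozygous libraries and 176, 168, 127 and 175 CPM in the Gata5-null libraries. Gata5-null replicate 3 was below the other 11 libraries. The log2 fold change of Gata5-null against wildtype was -0.11 (95% interval -0.39 to 0.18), and it was 0.0018 without that library and 0.0124 without wildtype replicate 2.

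Timp3 was the only TIMP whose libraries did not overlap between 2 groups, and it did not pass the test. It had 524, 627, 607 and 609 CPM in wildtype, 825, 691, 658 and 668 CPM in the double-heterozygous libraries and 755, 599, 479 and 484 CPM in the Gata5-null libraries. Each double-heterozygous library was above each wildtype library, which was so, in either direction, for 2.24% of all genes in that comparison. Timp3 was the only member of the 38 without overlap there (2.63%), so the share of members was near that of all genes. Its log2 fold change was 0.26 (SE 0.13, unadjusted p = 0.0617, adjusted p = 1 by edgeR) for double-heterozygous against wildtype and -0.29 (SE 0.13, unadjusted p = 0.0387, adjusted p = 1) for Gata5-null against double-heterozygous. In the Gata5-null group replicate 1 lay within the double-heterozygous range and replicates 3 and 4 below every other library. Leaving out 1 library gave -0.43 (without Gata5-null replicate 1) to -0.20 (without double-heterozygous replicate 1) for the second value. The first value was 0.19 without double-heterozygous replicate 1 and 0.30 without double-heterozygous replicate 3. Without both libraries that stand apart the second value was -0.20 (unadjusted p = 0.159 by edgeR). Against wildtype the Gata5-null mean hardly differed, at a log2 fold change of -0.03 (95% interval -0.31 to 0.25). Timp3 lies within Syn3 on the opposite strand, with shared exon sequence, but Syn3 had a mean of 5.02 CPM against 627 CPM for Timp3.

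The ratio of the summed TIMP level to the summed MMP level, both per kb, was 1.18 ± 0.0529 in wildtype, 1.25 ± 0.0522 in the double-heterozygous and 1.14 ± 0.14 in the Gata5-null libraries (SD, n = 4 each). Gata5-null replicate 2 had the highest ratio of all, 1.343, and the other 3 libraries of its group, at 1.04 to 1.1, had the lowest. It is a ratio of transcripts, and it says nothing of how much enzyme was active. The share of all counts that went to the 38 members was 0.392% ± 0.0296 for wildtype, 0.401% ± 0.015 in the double-heterozygous and 0.37% ± 0.021 in the Gata5-null libraries.

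**Figure D2:**
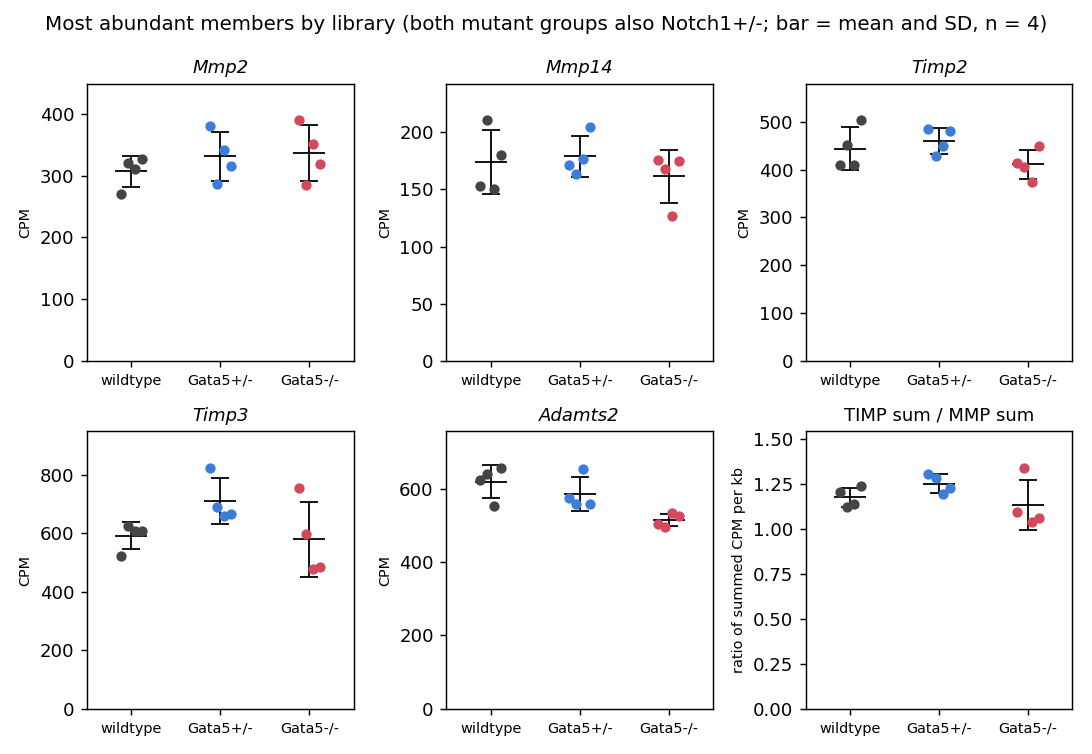
CPM of Mmp2, Mmp14, Timp2, Timp3 and Adamts2, and the ratio of summed TIMP to summed MMP level per kb, with 1 point per library, the mean and the SD (n = 4 per genotype). Mmp2, Mmp14 and Timp2 overlap between all groups, Timp3 is higher in each double-heterozygous library (658 to 825 CPM) than in wildtype (524 to 627 CPM), and Adamts2 is lower in each Gata5-null library than in the other 8.

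Below the threshold for calls, the members of smallest p in Gata5-null valves against wildtype all had lower means. At an unadjusted p under 0.05 there were 6 of 38 members (15.8%), all lower: Adamts17, Mmp19, Adamts2, Mmp23, Adamts5 and Mmp17. Of all genes tested 5.4% had such a p in that comparison, and 3.36% had one and were lower. With DESeq2 the count was 3, with limma-voom 4, and without both libraries that stand apart 3 (Adamts17 and Mmp17 lower, Adamtsl3 higher). The 5.4% and 3.36% belong to the edgeR fit of all libraries, and the shares in these other fits are not given here. In the edgeR fit of all libraries the count for Gata5-null against double-heterozygous was 3 (Adamts17, Mmp19 and Timp3, all lower). There 3.18% of all genes had such a p. For double-heterozygous against wildtype the count was 0 where 1.25% of all genes had one. The comparisons share libraries, so they do not repeat one another.

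Over all 38 members the median log2 fold change was close to that of all genes, with members on both sides of 0. For Gata5-null against wildtype the median log2 fold change of the 38 was -0.04 and that of all genes tested was -0.03, with 17 members higher and 21 lower. Of the 12 MMPs 8 were lower and 4 higher there (median -0.28), of the 16 ADAMTS proteases 9 were lower and 7 higher (median -0.05), and of the 4 TIMPs 2 were lower and 2 higher (median 0.04). For double-heterozygous against wildtype the medians were 0.0021 and 0.0018, with 19 members higher and 19 lower. For Gata5-null against double-heterozygous they were -0.06 and -0.04, with 15 higher and 23 lower. The data bound the size of most changes: the 95% interval lay within a 2-fold change either way for 26 of 38 members in the first comparison and 25 in each of the others. Of the 12 outside it in the first, Mmp19 and Mmp17 are described below, and the rest are members of low level such as Mmp3, Mmp12, Mmp24, Mmp11, Mmp28, Adamts3, Adamts20 and Timp4, together with Mmp15 and Mmp24os1.

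**Figure D3:**
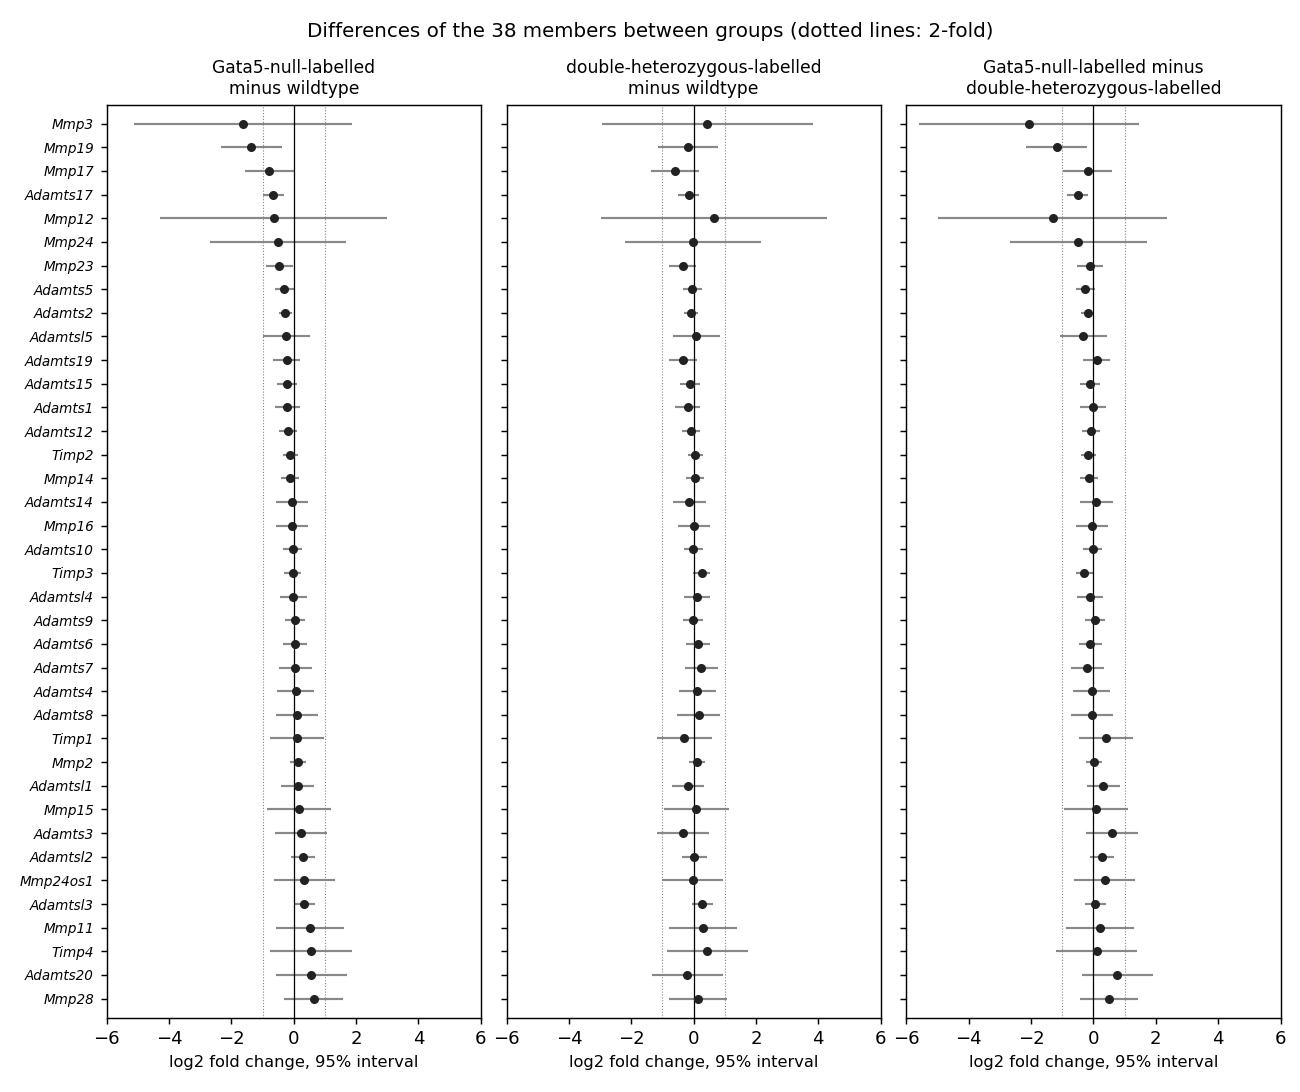
Log2 fold change of each of the 38 members with its 95% interval in the 3 comparisons, ordered by the first, with dotted lines at a 2-fold change. Most intervals lie within the dotted lines and cross 0, and the widest belong to Mmp3, Mmp12 and Mmp24, which have few counts.

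Adamts17, a secreted protease whose loss in people gives a short-stature and lens disorder of the fibrillin type, had the smallest p. Its level was 73.9, 85.7, 83.2 and 89.7 CPM in wildtype, 63.4, 63.4, 99.8 and 72.7 CPM in the double-heterozygous libraries and 48.2, 48, 51.4 and 63.4 CPM in the Gata5-null libraries. Every Gata5-null library was below every wildtype library, whereas the double-heterozygous libraries spanned the wildtype range and reached down to the highest Gata5-null library. The log2 fold change of Gata5-null against wildtype was -0.65 (SE 0.16, 95% interval -0.99 to -0.32), or 0.635 of the wildtype level. The edgeR p was 5.29e-04 before adjustment and 0.427 after it, so the difference is larger than the spread between pools for this gene taken alone and is not a call among 19346 genes. An exact two-sided permutation test gave p = 0.0286, the smallest that 4 against 4 libraries allow. Against double-heterozygous the log2 fold change was -0.50 (unadjusted p = 0.00517, adjusted p = 1), and -0.33 without double-heterozygous replicate 3, the highest library of all.

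The authors' deposited table gave Adamts17 a log2 fold change of -0.63 and an adjusted p of 0.103, so it lay just outside the adjusted p of 0.1 at which that table marks a gene. Over the alternatives tried here the adjusted p of Adamts17 against wildtype was never under 0.1, the lowest being 0.101 with DESeq2, while its log2 fold change stayed between -0.76 and -0.60.

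The 250 bases before the transcription start of Adamts17 are shown because it is the member with the smallest p, beside those of Adamtsl3, which had the smallest p of the members that were higher in Gata5-null valves. They are the RefSeq promoter windows of mouse build GRCm38.p6, the plus strand of chr7:66839485-66839734 for Adamts17 and of chr7:82335444-82335693 for Adamtsl3, and capitals mark motif matches on either strand.
Adamts17: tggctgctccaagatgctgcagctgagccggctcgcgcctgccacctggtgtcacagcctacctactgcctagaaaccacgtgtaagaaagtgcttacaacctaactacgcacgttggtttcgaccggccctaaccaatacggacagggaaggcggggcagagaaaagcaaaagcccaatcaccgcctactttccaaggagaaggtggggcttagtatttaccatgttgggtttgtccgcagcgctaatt
Adamtsl3: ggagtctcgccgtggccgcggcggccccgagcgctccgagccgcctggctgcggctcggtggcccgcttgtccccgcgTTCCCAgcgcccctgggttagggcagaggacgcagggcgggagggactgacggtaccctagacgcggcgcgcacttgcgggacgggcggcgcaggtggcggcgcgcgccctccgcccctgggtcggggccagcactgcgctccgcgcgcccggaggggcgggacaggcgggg
The motifs searched were the GATA motif (AGATAA, the form TGATAA, the form AGATAG and the form TGATAG), the RBPJ motif (TGGGAA) and the CArG box, the element bound by serum response factor. The Adamts17 window held none of them and the Adamtsl3 window held 1 RBPJ match. RefSeq windows were found for 24 of the 38 members (26 windows). The GATA motif was in 4 of these 26 windows (Adamts20, Mmp12, Mmp15 and Mmp24) and in 26.5% of all 32851 windows, the RBPJ motif in 6 of 26 and 21.6% of all, and the CArG box in 0 of 26 and 1.47% of all. Member windows were richer in G and C (median 63.4%) than all windows (52.4%). A match is a run of letters and not a binding site, and an absent match covers these 250 bases only.

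Mmp19, an MMP that cuts basement membrane proteins, had the largest log2 fold change of the 6. Its level was 6.5, 13.6, 6.46 and 11.5 CPM in wildtype, 6.72, 8.64, 9.07 and 9.08 CPM in the double-heterozygous libraries and 4.36, 3.24, 1.45 and 5.66 CPM in the Gata5-null libraries, or 21 to 137 counts per Gata5-null library. Each Gata5-null library was below the other 8 libraries. The log2 fold change was -1.36 (SE 0.48, unadjusted p = 0.00846, adjusted p = 0.839 by edgeR) against wildtype and -1.18 (SE 0.47, unadjusted p = 0.02, adjusted p = 1) against double-heterozygous. Without both libraries that stand apart, which hold the highest wildtype and the lowest Gata5-null value, the first was -0.88 (unadjusted p = 0.0506). Mmp19 shares exon sequence with Tmem198b on the opposite strand, which had a mean of 15.2 CPM against 7.19 CPM for Mmp19. Because the sources used here do not give the strand setting of the counting, reads of both genes cannot be told apart and the value of Mmp19 is uncertain.

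Adamts2 had 622, 640, 554 and 657 CPM in wildtype, 574, 559, 654 and 557 CPM in the double-heterozygous libraries and 505, 496, 532 and 524 CPM in the Gata5-null libraries. The Gata5-null libraries were a narrow group below the other 8. The difference was small, with a log2 fold change of -0.27 (95% interval -0.49 to -0.05, unadjusted p = 0.0203, adjusted p = 0.84 by edgeR) against wildtype and -0.19 (-0.41 to 0.03) against double-heterozygous. Adamts3 and Adamts14, the other procollagen N-propeptidases, had far lower levels, 2.19 and 4.49 CPM per kb in wildtype. The libraries of the groups overlapped for both genes in every comparison.

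Adamts17, Mmp19 and Adamts2 were the 3 of 38 members (7.9%) whose Gata5-null and wildtype libraries did not overlap, where 2.93% of all genes had no overlap. Against double-heterozygous there were 2 (Adamts2 and Mmp19), where 2.73% of all genes had none. Over the 12 libraries the log2 CPM of Adamts2 and Adamts17 had the highest Pearson correlation of all 378 pairs among the 28 members of at least 10 CPM, 0.88, as a description across libraries that differ in genotype and depth. The median over all pairs was 0.05.

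Adamts5, the protease most closely tied to versican cleavage in valve development, had 106, 90.3, 95.4 and 112 CPM in wildtype, 111, 87.7, 90 and 103 CPM in the double-heterozygous libraries and 85.5, 76.2, 66 and 98.1 CPM in the Gata5-null libraries. Gata5-null replicate 4 lay within the wildtype range and the other 3 below it. Against wildtype the log2 fold change was -0.31 (95% interval -0.61 to -0.01, unadjusted p = 0.0463, adjusted p = 0.909 by edgeR), and it was -0.26 (unadjusted p = 0.093) without both libraries that stand apart. The 7 versican- and aggrecan-cleaving members (Adamts1, Adamts4, Adamts5, Adamts8, Adamts9, Adamts15 and Adamts20) did not move together: 4 were higher and 3 lower, with log2 fold changes from -0.31 to 0.56 and a median of 0.03. Adamts1 itself had 172, 257, 136 and 203 CPM in wildtype, 169, 159, 132 and 214 CPM in the double-heterozygous libraries and 143, 127, 189 and 207 CPM in the Gata5-null libraries. Its log2 fold change against wildtype was -0.21 (95% interval -0.61 to 0.20), and it ranged from -0.34 without wildtype replicate 3, its lowest wildtype library, to -0.0199 without wildtype replicate 2, its highest.

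Mmp23, a small MMP with a distinctive domain layout, and Mmp17, an MMP held to the membrane by a lipid anchor, were lower on average with wide scatter. Mmp23 had 38.8, 72.7, 56.8 and 40.3 CPM in wildtype, 40.7, 43, 39.4 and 40.2 CPM in the double-heterozygous libraries and 47.1, 27.3, 38.8 and 38.3 CPM in the Gata5-null libraries. Its wildtype mean rested on replicates 2 and 3, and the log2 fold change against wildtype of -0.46 (unadjusted p = 0.0344, adjusted p = 0.872 by edgeR) was -0.24 without replicate 2. For double-heterozygous against wildtype it was -0.35, and -0.15 without the same library. Mmp17 had 20.3, 19.2, 11.8 and 20.2 CPM in wildtype, 9.89, 11.4, 9.63 and 16.4 CPM in the double-heterozygous libraries and 3.98, 13.7, 17.1 and 6.86 CPM in the Gata5-null libraries. Its log2 fold change against wildtype was -0.78 (unadjusted p = 0.0496, adjusted p = 0.924), and it ranged from -1.13 without Gata5-null replicate 3 to -0.49 without Gata5-null replicate 1. For double-heterozygous against wildtype it was -0.60 (unadjusted p = 0.128, adjusted p = 1). Of the 5 membrane-type MMPs 4 were lower and 1 higher in Gata5-null valves against wildtype, with a median of -0.11.

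**Figure D4:**
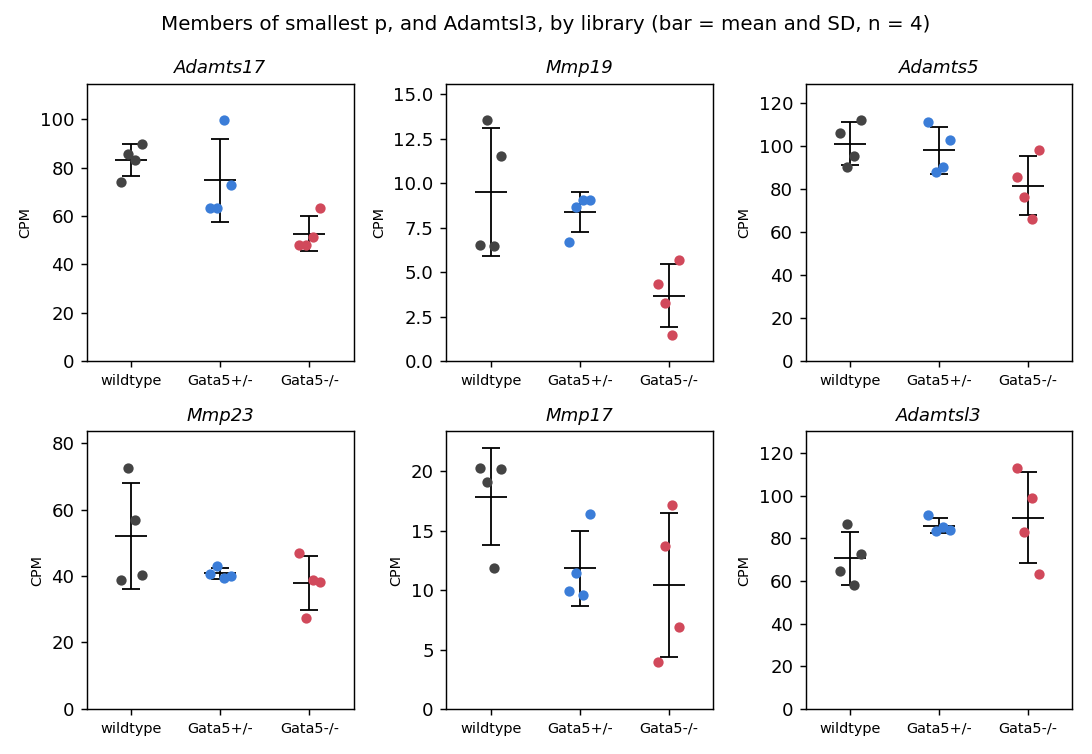
CPM of Adamts17, Mmp19, Adamts5, Mmp23, Mmp17 and Adamtsl3 with 1 point per library, the mean and the SD (n = 4 per genotype, both mutant groups also Notch1+/-). The Gata5-null libraries of Adamts17 and Mmp19 lie below all 4 wildtype libraries, those of the other 4 genes overlap them, and the widest relative scatter within a group is in the Gata5-null libraries of Mmp17 (3.98 to 17.1 CPM).

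Both ADAMTS-like genes named by the rule had higher means in Gata5-null valves, and neither passed the test. Adamtsl3 had 64.5, 86.7, 58.2 and 72.7 CPM in wildtype, 90.9, 83.2, 85.3 and 83.7 CPM in the double-heterozygous libraries and 113, 82.9, 98.9 and 63.3 CPM in the Gata5-null libraries. The difference from wildtype was a log2 fold change of 0.34 (unadjusted p = 0.0507, adjusted p = 0.933 by edgeR) in Gata5-null and 0.28 (unadjusted p = 0.104, adjusted p = 1) in double-heterozygous valves, and all groups overlapped. Adamtsl2, known for a fibrillin-related growth disorder that includes thickened heart valves, had 96.2, 92.7, 85.3 and 61.7 CPM in wildtype, 72.4, 91.2, 101 and 75.6 CPM in the double-heterozygous libraries and 96.6, 131, 120 and 64.4 CPM in the Gata5-null libraries. For Gata5-null against wildtype the log2 fold change was 0.29 (95% interval -0.10 to 0.69), from 0.16 without Gata5-null replicate 2 to 0.46 without Gata5-null replicate 4. Of the 5 ADAMTS-like genes 3 were higher and 2 lower, with a median of 0.13.

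The remaining members named by the rule overlapped between all groups. Adamts19, whose loss is linked to heart valve disease in people, had 90.7, 141, 105 and 69 CPM in wildtype, 73.8, 92, 80.1 and 75 CPM in the double-heterozygous libraries and 128, 75.1, 76.3 and 65.4 CPM in the Gata5-null libraries. Its log2 fold change against wildtype was -0.34 (unadjusted p = 0.122, adjusted p = 1 by edgeR) in double-heterozygous and -0.23 (95% interval -0.67 to 0.20) in Gata5-null valves, and these were -0.14 and -0.0175 without wildtype replicate 2. Leaving out other libraries moved them the other way, to -0.48 (unadjusted p = 0.0244) without wildtype replicate 4 for the first and -0.47 (unadjusted p = 0.0202) without Gata5-null replicate 1 for the second. Adamts10 had 318, 388, 250 and 251 CPM in wildtype, 310, 287, 357 and 246 CPM in the double-heterozygous libraries and 330, 313, 276 and 256 CPM in the Gata5-null libraries. Its log2 fold change of Gata5-null against wildtype was -0.04 (95% interval -0.34 to 0.26), and it was 0.12 without wildtype replicate 2 and 0.0205 without Gata5-null replicate 4.

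Adamts7, a protease that cuts cartilage oligomeric matrix protein, had 25.2, 14.2, 26.9 and 19.8 CPM in wildtype, 23.9, 19.3, 30.1 and 28.9 CPM in the double-heterozygous libraries and 30.6, 19.2, 20.1 and 19.2 CPM in the Gata5-null libraries. The log2 fold changes against wildtype were 0.25 (95% interval -0.27 to 0.77) in double-heterozygous and 0.05 (-0.47 to 0.57) in Gata5-null valves, and they were 0.09 and -0.09 without wildtype replicate 2. Adamts7 shares exon sequence with Tbc1d2b on the opposite strand (50.3 CPM against 23.1 CPM), so its level is uncertain. Mmp11, a stromelysin by name, had 3.95, 3.66, 3.05 and 8.91 CPM in wildtype, 5.36, 7.33, 4.13 and 7.28 CPM in the double-heterozygous libraries and 7.96, 3.11, 10.4 and 6.57 CPM in the Gata5-null libraries. The log2 fold change of Gata5-null against wildtype, 0.52 (95% interval -0.58 to 1.61), was 0.98 without wildtype replicate 4, 0.28 without Gata5-null replicate 3 and 0.16 without both libraries that stand apart, and Mmp11 shares exon sequence with the more abundant Chchd10 (20.5 CPM against 5.98 CPM).

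Markers of smooth muscle were lower in the Gata5-null libraries, as were Adamts17, Mmp19 and Adamts2. The 9 markers, all present, summed to 5756 to 7702 CPM in wildtype, 5192 to 5950 CPM in the double-heterozygous and 3937 to 5308 CPM in the Gata5-null libraries. In Gata5-null against wildtype 8 of 9 were lower, and 4 of them passed the edgeR test (Cnn1, Myh11, Mylk and Synpo2), where 0.0258% of all genes did. In double-heterozygous against wildtype 8 of 9 were lower as well, with a median log2 fold change of -0.30. There 0 passed the test while 5 had an unadjusted p under 0.05, where 1.25% of all genes had one. Adamts17 there had a log2 fold change of -0.15 (95% interval -0.49 to 0.18) and Adamts2 one of -0.08 (-0.30 to 0.14), and for Mmp19 the libraries of both groups overlapped. Fewer smooth muscle cells and less RNA of these genes per cell cannot be told apart in bulk tissue, and the part of this shift in the levels of Adamts17, Mmp19 and Adamts2 was not tested. Over the 12 libraries, the genes of at least 10 CPM with log2 CPM most like that of Mmp19 were Lmod1 (Pearson r 0.93), Cyld and Rhoc, and those most like Adamts17 were Gpd2 (r 0.94), Fblim1 and Map1b. Both lists were drawn up after the values were seen, and Lmod1 is itself on the smooth muscle list.

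Markers of cartilage-like cells were higher on average with genotype, at 449 to 671 CPM in wildtype, 615 to 875 CPM in the double-heterozygous and 484 to 1267 CPM in the Gata5-null libraries, and 0 of 9 passed the test. Of these, 5 had an unadjusted p under 0.05 in Gata5-null against wildtype, all higher, and the median log2 fold change was 0.56. Of all genes 5.4% had such a p in that comparison. Atrial cardiomyocyte markers were 6 of 6 lower in that comparison (median -1.47, 2 at an unadjusted p under 0.05, 0 called), with a sum of 143 to 689 CPM in wildtype, 67.9 to 502 CPM in the double-heterozygous and 67.4 to 292 CPM in the Gata5-null libraries. Epicardial markers were 5 of 6 lower (median -0.40, 0 at an unadjusted p under 0.05), with a sum of 51 to 108 CPM in wildtype and 16.1 to 85.8 CPM in Gata5-null libraries. Ventricular and general cardiomyocyte markers were 10 of 10 higher in Gata5-null against wildtype (median 0.19, 0 at an unadjusted p under 0.05). In double-heterozygous against wildtype 8 of 10 were higher (median 0.10), and the sums of all groups overlapped. The part of these shifts in the levels of the members was not tested. Endothelial markers (936 to 1341 CPM) and macrophage markers (160 to 243 CPM) had sums that overlapped between the groups. Endothelial markers were 8 of 10 higher in Gata5-null against wildtype (median 0.12). Of them 2 had an unadjusted p under 0.05, where 5.4% of all genes did, and 0 were called. Macrophage markers were 8 of 9 higher in double-heterozygous against wildtype (median 0.26) and 8 of 9 lower in Gata5-null against double-heterozygous (median -0.33). Of these 0 had an unadjusted p under 0.05 in any comparison. Their part in the member levels was not tested either. Neutrophil markers were near 0, at no more than 3.61 CPM summed over the 2 of 10 that the table holds.

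**Figure D5:**
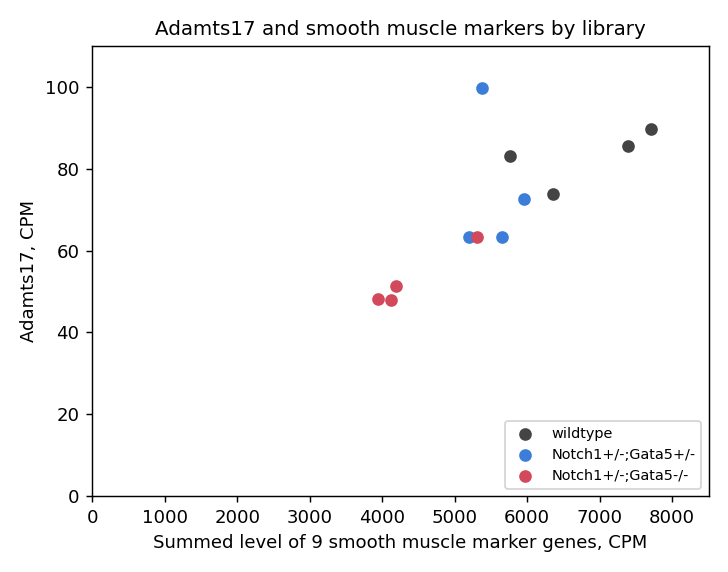
Adamts17 (CPM, vertical axis) against the summed level of 9 smooth muscle marker genes (CPM, horizontal axis), 1 point per library, coloured by genotype. The Gata5-null libraries lie lowest on both axes on average (3937 to 5308 and 48 to 63.4 CPM), while double-heterozygous replicate 3, the highest in Adamts17 at 99.8 CPM, has 5379 CPM of marker genes.

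Among the inhibitors and the most abundant members, other genes followed similar courses over the 12 libraries. The genes most like Timp2 were Il6st (Pearson r 0.93), Samd4b and Tnfrsf1a, those most like Timp3 were Angptl7 (r 0.94), Arrb1 and Itih5, and those most like Mmp2 were Morc2a (r 0.83), Eps8 and Klf11. Each was the best of 9841 genes of at least 10 CPM, and the libraries share genotype and depth, so the values are descriptions only. Between members, Mmp14 and Timp2 had an r of 0.74, and Adamts5 and Adamtsl2 the most negative value of all pairs, -0.82.

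Genes that act around the family were examined as lists. Of 27 tested activators, membrane inhibitors and cofactors, 0 were called in any comparison by edgeR, and 2 had an unadjusted p under 0.05 in Gata5-null against wildtype, a comparison in which 5.4% of all genes did. Those were Thsd4, which encodes another ADAMTS-like protein under a different symbol, and Sdc4, a cell-surface proteoglycan. Thsd4 was 214 to 298 CPM in wildtype and 144 to 208 CPM in Gata5-null libraries, with no overlap and a log2 fold change of -0.52 (adjusted p = 0.574). In the double-heterozygous libraries Thsd4 was 165 to 223 CPM, which overlapped wildtype. Its log2 fold change there against wildtype was -0.35 (unadjusted p = 0.0254 by edgeR). Sdc4 was 77.5 to 83.9 CPM in wildtype and 49.9 to 69.6 CPM in Gata5-null libraries (log2 fold change -0.34, adjusted p = 0.872). Reck, a membrane-anchored inhibitor of MMPs, was 31.2 to 51.9 CPM in wildtype, 47.4 to 68.2 CPM in the double-heterozygous and 27.8 to 50.5 CPM in the Gata5-null libraries. It had a log2 fold change of 0.42 for double-heterozygous against wildtype (unadjusted p = 0.0475, adjusted p = 1) and -0.47 for Gata5-null against double-heterozygous (unadjusted p = 0.0286, adjusted p = 1). The list's median log2 fold change was -0.05 in Gata5-null against wildtype.

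Of 30 tested substrates 0 were called in any comparison, and 6 had an unadjusted p under 0.05 in Gata5-null against wildtype, 4 higher and 2 lower, beside 5.4% of all genes. Col14a1, a fibril-associated collagen, had a log2 fold change of -0.42 (1313 to 1746 CPM in wildtype and 1020 to 1443 CPM in Gata5-null libraries, adjusted p = 0.63). Eln, which encodes elastin, had -0.50 (adjusted p = 0.738), and Fbn2, a fibrillin of the developing matrix, had 0.33 (adjusted p = 0.839). Col14a1 and Eln were lower in double-heterozygous valves as well, each with a log2 fold change of -0.32 against wildtype. Double-heterozygous libraries had 1125 to 1296 CPM of Col14a1, without overlap with wildtype, while those of Eln overlapped wildtype. In that comparison 2 of the 30 substrates had an unadjusted p under 0.05, both lower, beside 1.25% of all genes. Acan, which encodes aggrecan, was 204 to 305 CPM in Gata5-null and 144 to 201 CPM in double-heterozygous libraries, without overlap (log2 fold change 0.48, adjusted p = 1). The list's median log2 fold change of Gata5-null against wildtype was 0.02, with 15 substrates higher and 15 lower.

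Of 16 tested genes of collagen assembly and processing 0 were called in any comparison, and 5 had an unadjusted p under 0.05 in Gata5-null against wildtype, 3 higher and 2 lower, beside the same 5.4% of all genes. Col8a1, a short-chain collagen, had a log2 fold change of 0.57 in Gata5-null (adjusted p = 0.525) and 0.54 in double-heterozygous valves (adjusted p = 1), both against wildtype. Loxl1, a cross-linker of elastin, had -0.41 (adjusted p = 0.738) in Gata5-null valves, and Pcolce2, an enhancer of procollagen C-propeptide cleavage, had -0.69 (adjusted p = 0.839). Of 11 tested ADAM genes, the membrane-anchored relatives of the ADAMTS proteases, 0 were called and 0 had an unadjusted p under 0.05 in any comparison. Their median log2 fold change of Gata5-null against wildtype was -0.02.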

How the data were processed

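Raw counts (whole numbers per gene and library) were deposited by the authors for 20620 genes. Per the submitters' processing notes, Trim Galore, STAR 2.7.10b, GRCm39 and DESeq2 1.34.0 were used. The sources used here do not give the counting tool, the annotation or the strand setting. A second table deposited by the authors lists 13959 genes by a normalized mean (a signal), a log2 fold change, scores (standard error and Wald statistic) and p-values, and its comparison was identified by refitting. Libraries held 13866604 to 25059653 counts.

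The tests were run with edgeR 4.0.16 in R 4.3.3 (filterByExpr, TMM, robust quasi-likelihood fit over all 12 libraries, 3 contrasts, Benjamini-Hochberg adjustment over 19346 genes), with DESeq2 1.42.0 and limma 3.58.1 as alternatives. Intervals are 95% intervals of the fitted log2 fold change. Single genes were also compared by exact two-sided permutation over libraries. The scripts were tested on simulated data. Nothing states that pools came from separate litters, so p-values measure the spread between these pools. Floors of 3 counts cover counting error only. Exon lengths, overlaps and 6077 further symbols came from GENCODE of an older build, GRCm38, of which no coordinates are given apart from RefSeq's promoter windows.

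Members named with all their values were the 6 of smallest p per comparison (mean of at least 1 CPM) and the highest per kb of each subfamily. Genes named from the lists of activators and inhibitors, substrates and collagen processing were among the 3 of smallest p per list and comparison. Not all of those are named, and no ADAM gene is. Members, lists and alternatives were chosen with earlier results of these data known.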

Additional observations from a re-analysis of the deposited data

Results flagged for a closer look

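The values of each member in each group of 4 libraries were searched for a single library far from the other 3 (114 groups, by Dixon's ratio of gap to range at the 95% level), which chance gives in about 1 of 20 groups, and 6 were found. Mmp11 in wildtype replicate 4 was 8.91 CPM against 3.05 to 3.95 CPM in the other 3. Mmp14 in Gata5-null replicate 3 was 127 CPM against 168 to 176 CPM. Mmp17 in wildtype replicate 3 was 11.8 CPM against 19.2 to 20.3 CPM. Adamts7 in Gata5-null replicate 1 was 30.6 CPM against 19.2 to 20.1 CPM. Adamts15 in wildtype replicate 4 was 78 CPM against 98 to 102 CPM. Adamts14 in wildtype replicate 3 was 28 CPM against 21.3 to 22.1 CPM. Wildtype replicate 2, which has the most genes at 0 of the wildtype libraries, is in none of them, although it was the highest wildtype library for 17 of 38 members.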

How the results depend on the processing

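The count of members called was 0 in all 3 comparisons under each of 21 refits per comparison (other normalizations and filters, DESeq2, limma-voom, a fit to the 8 libraries of a comparison alone, leave-one-out, the replicate block, and without wildtype replicate 2 and Gata5-null replicate 3) and with the authors' thresholds (adjusted p under 0.1, absolute log2 fold change over 0.58). The smallest adjusted p of a member over these was 0.101 (Gata5-null against wildtype), 1 (double-heterozygous against wildtype) and 0.692 (Gata5-null against double-heterozygous). Members at an unadjusted p under 0.05 numbered 3 to 8, 0 to 2 and 2 to 4. The shares of all genes at such a p in these refits, the replicate block included, are not given here. Over the same refits, 0 to 49, 0 to 8 and 0 to 13 genes of the whole table were called, the highest each time with DESeq2. The libraries numbered 4 deviated together, with r of 0.21 to 0.33 for the 3 pairs among them. The highest r between libraries of different number was 0.19. These were the only 3 of 12 same-numbered pairs with r over 0.1, so the other numbers did not pair the libraries. What the libraries numbered 4 share was not tested. With the replicate block 0 members were called in each comparison, with 5, 0 and 4 at an unadjusted p under 0.05.

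Signs changed for members whose log2 fold change was near 0. Leaving out 1 library gave, for Gata5-null against wildtype, -0.12 to 0.12 for Adamts10, -0.13 to 0.18 for Adamts7, -0.17 to 0.0124 for Mmp14 and -0.17 to 0.0611 for Timp3, and for Gata5-null against double-heterozygous -0.0436 to 0.11 for Mmp2. Without both libraries that stand apart the values for Gata5-null against wildtype were 0.14 for Adamts10, 0.0305 for Adamts19, -0.0506 for Adamts7, 0.11 for Mmp14 and 0.0878 for Timp3. Members with few counts (240 in all for Mmp12) have intervals far wider than 2-fold.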
